A study of Mus musculus with 46 samples.

Results

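EPI-E cells are the CD140- fraction of mouse EPSCs that had been kept in medium inducing primitive endoderm (PrE), and they are compared here with EPSC, the starting cell type. The comparison took the 2 EPI-E libraries from the count table of the sorted fractions and the 2 EPSC libraries from a separate table, joined on the 21793 gene symbols that occur once in each, and so used 4 of the 46 libraries of the series. The series measured RNA in EPSCs and in cells derived from them, and its stated questions were the transcriptomic states of EPSCs and the stability of RNA across states. Within the 4 libraries, EPI-E carried the labels CD140- and PrE-inducing medium, and EPSC carried the cell type alone. Beside them, for comparison, stand the 2 libraries of PrE-E, the CD140+ fraction sorted after the same induction and held in the same table as EPI-E, and 2 further EPSC libraries labelled EPS at 0 h of actinomycin D, a transcription inhibitor, called EPS 0 h below. CD140 is the antigen name of PDGF receptor chains, and Pdgfra, which encodes the alpha chain, is a PrE marker. The labels do not say which chain was sorted, so the level of Pdgfra in EPI-E may be tied to the sort and is no finding. Strain, sex, passage, length of induction and number of clones are not stated in the sources used here, and nothing in the labels says that the 2 libraries of a group came from separate cultures, so p-values measure only how far these 2 samples spread, which may be technical.

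EPSCs, extended or expanded potential stem cells, are pluripotent cells cultured so that they can also form extraembryonic lineages. In the mouse embryo the inner cell mass separates into PrE, which goes on to line the yolk sac, and the epiblast, which makes the body. Epiblast cells first hold a naive state, with the transcription factors Klf2, Klf4, Esrrb, Tfcp2l1 and Nanog and with LIF and BMP signals in culture, and then pass through a formative state, with Otx2, Fgf5, Pou3f1 and the de novo DNA methyltransferases, on the way to germ layers. Pou5f1 and Sox2 are used in both states.

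Total counts over the joined genes were 14670735 and 12782437 in EPI-E and 10005196 and 6854433 in EPSC. Levels are CPM, counts divided by library size on a common TMM scale, changes are log2 values ± SE of EPI-E minus EPSC from edgeR's quasi-likelihood test, and n = 2 libraries per group throughout. A gene is said to have risen or fallen where its Benjamini-Hochberg adjusted p was under 0.05. Of 12940 genes tested, 8469 (65.4%) were called, 4201 (32.5%) higher and 4268 (33%) lower in EPI-E, and 5208 (40.2%) were called with a change of at least 1 log2 unit. Table and group coincide in this comparison, so a difference between cells and a difference between tables cannot be told apart. EPSC and EPS 0 h, both labelled EPSC, also lie in separate tables: 10230 of 13284 genes (77%) were called between them, 3357 (25.3%) with at least 1 log2 unit. Table and group coincide there too, so these counts do not isolate a difference between tables. The spread within groups (edgeR common dispersion) was 0.000229 in that fit, against 0.0117 for EPI-E against EPSC. A smaller spread lets more genes be called, so the shares called in the 2 comparisons are not measured alike. A stricter count is also given for each list, of genes that were called and whose EPI-E values both lay above, or both below, all 4 EPSC-labelled values. This rule sets aside changes that do not keep their direction against both EPSC-labelled groups. It asks for no margin and no test against EPS 0 h, so a small change against EPS 0 h can pass. Against EPS 0 h, Fgfr1 passed with -0.07 ± 0.06 (edgeR adjusted p = 0.311) and Cubn with -0.33 ± 0.25 (edgeR adjusted p = 0.282). The rule also cannot detect a difference particular to the table of the sorted fractions, since no EPSC-labelled library is in that table. The rule held for 6859 genes (53%), 3488 higher (27%) and 3371 lower (26.1%). The lists below are read against these shares and against a median change of -0.07 over all tested genes. In bulk RNA, fewer cells of a type and less RNA per cell cannot be told apart.

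**Figure D1:**
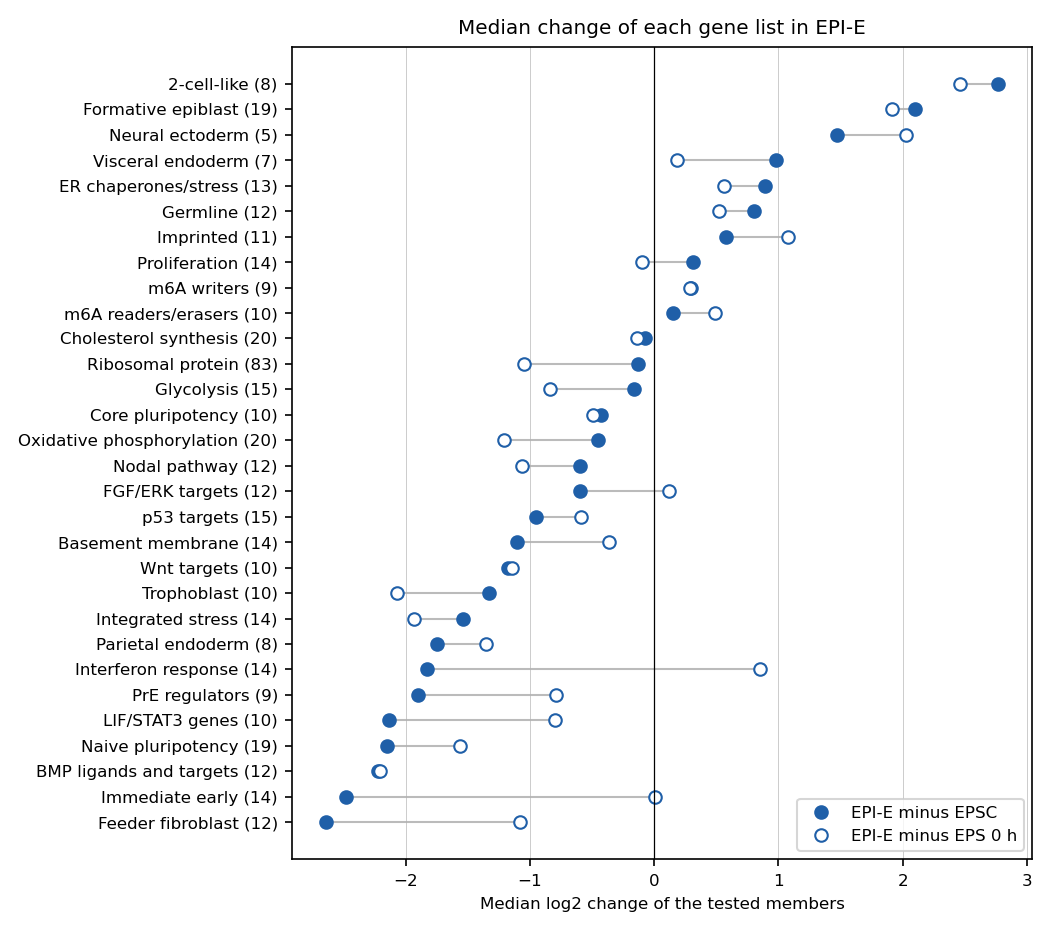
Median log2 change of the tested members of 30 gene lists, in EPI-E minus EPSC (filled) and in EPI-E minus EPS 0 h (open), with the number of members tested against EPSC in brackets. Naive genes (-2.15 and -1.56), BMP genes (-2.22 and -2.21) and integrated stress genes (-1.54 and -1.93) lay below 0 and formative genes (2.10 and 1.91) above 0 by either set of EPSC libraries, while the medians of the interferon (-1.83 and 0.85), immediate early (-2.48 and 0.01), FGF/ERK (-0.60 and 0.12) and proliferation (0.31 and -0.10) lists did not keep their sign.

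Naive pluripotency genes were lower in EPI-E. Of 19 tested of 20 listed, 13 fell and 4 rose, with a median of -2.15, and 12 of the falls lay below all 4 EPSC-labelled libraries. Klf2, a Krüppel-like factor of the naive network, had 12.6 and 9.98 CPM in EPI-E, against 299.9 and 283 CPM in EPSC and 111 and 127 CPM at EPS 0 h (-4.57 ± 0.10, edgeR adjusted p = 6.64e-09). The 3 groups did not overlap, and EPI-E was lowest. Tfcp2l1, a transcription factor downstream of LIF and Wnt signals, had 57.6 and 53.3 CPM in EPI-E, against 524 and 543 CPM in EPSC and 218 and 213 CPM at EPS 0 h (-3.16 ± 0.06). Tdh, the threonine dehydrogenase on which mouse embryonic stem cells depend for threonine catabolism, had 53.5 and 55.1 CPM in EPI-E, against 527 and 542 CPM in EPSC and 615 and 606 CPM at EPS 0 h (-3.20 ± 0.05). In each of these genes both EPI-E values were well under every EPSC-labelled value. Esrrb, an orphan nuclear receptor, had 93.3 and 105 CPM in EPI-E, against 565 and 586 CPM in EPSC and 385 and 379.7 CPM at EPS 0 h (-2.44 ± 0.06), and Klf4 had 47.1 and 32.1 CPM in EPI-E, against 249 and 246 CPM in EPSC and 104 and 109 CPM at EPS 0 h (-2.54 ± 0.14). Prdm14, a repressor of FGF signalling and DNA methylation in naive cells, fell by 2.95 on the log2 scale, and its EPI-E values of 1.31 and 1.31 CPM stood against 12.2 and 12 CPM in EPSC.

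The list was not uniform. Zfp42, which encodes the marker Rex1, fell against EPSC (116 and 111 CPM in EPI-E, against 299 and 307 CPM in EPSC; -1.32 ± 0.05), yet EPS 0 h had 95 and 91.4 CPM, below both EPI-E values. The 4 members that rose were all Dppa genes, and 0 of the 4 lay above all EPSC-labelled libraries. Dppa3, the maternal factor Stella, had 27.1 and 18.8 CPM in EPI-E, against 5.02 and 3.84 CPM in EPSC and 27.9 and 28.3 CPM at EPS 0 h (2.41 ± 0.27). Both EPI-E values were under those of EPS 0 h and above those of EPSC.

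Core pluripotency factors moved in different directions. Of 10 tested, 6 fell and 4 rose (median -0.43), and 5 falls and 1 rise lay beyond all 4 EPSC-labelled libraries. With library totals 9 fell and 1 rose (median -1.07). Nanog, the homeobox factor that separates epiblast from PrE, had 21.1 and 25.4 CPM in EPI-E, against 246 and 239 CPM in EPSC and 322 and 329.99 CPM at EPS 0 h (-3.28 ± 0.09, edgeR adjusted p = 2.67e-08). EPI-E was low in both libraries, and the EPSC-labelled libraries were all far higher. Sox2 fell by 0.53 ± 0.06 on the log2 scale (188 and 177 CPM in EPI-E, against 293 and 270.1 CPM in EPSC). Pou5f1, which encodes Oct4, had 699 and 725 CPM in EPI-E, against 586 and 616 CPM in EPSC and 949 and 947 CPM at EPS 0 h (0.34 ± 0.04), so EPI-E lay between the EPSC-labelled groups, and the change turned to -0.30 when libraries were scaled to their totals. L1td1, an RNA-binding protein derived from a transposon and abundant in pluripotent cells, had 3331 and 3354 CPM in EPI-E, against 493 and 492 CPM in EPSC and 659 and 645 CPM at EPS 0 h (2.86 ± 0.03), the 1 core gene above all 4 EPSC-labelled libraries. Trim28, a corepressor of transposons, fell by 1.00 ± 0.03 on the log2 scale, and the change was -0.09 with offsets for transcript length and GC content.

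**Figure D2:**
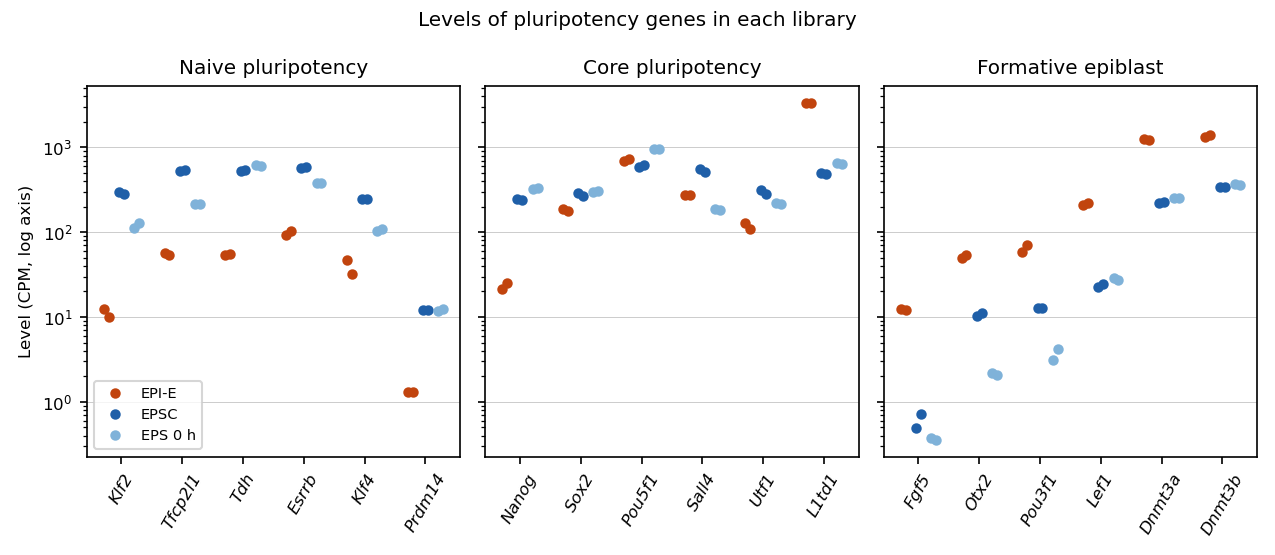
Level of 18 genes in each library (CPM, log axis) for EPI-E, EPSC and EPS 0 h, with 1 point per library. Both EPI-E points lie below every EPSC-labelled point for the 6 naive genes and Nanog, lie within the spread of the EPSC-labelled groups for Pou5f1 and Sall4, and lie above every EPSC-labelled point for the 6 formative genes and L1td1.

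Formative epiblast genes were higher in EPI-E. Of 19 tested of 20 listed, 15 rose and 1 fell, with a median of 2.10, and all 15 rises lay above all 4 EPSC-labelled libraries. Fgf5, the ligand that marks epiblast after implantation, had 12.5 and 11.9 CPM in EPI-E, against 0.494 and 0.719 CPM in EPSC and 0.37 and 0.357 CPM at EPS 0 h (4.08 ± 0.36, edgeR adjusted p = 2.25e-05). It was near the floor in every EPSC-labelled library, where 3 counts correspond to 0.134 to 0.360 CPM. Otx2, the homeobox factor that drives the exit from the naive state, had 49.1 and 53.5 CPM in EPI-E, against 10.2 and 11 CPM in EPSC and 2.17 and 2.1 CPM at EPS 0 h (2.35 ± 0.14). Pou3f1, a POU factor known as Oct6, had 58.9 and 71.4 CPM in EPI-E, against 12.8 and 12.9 CPM in EPSC and 3.14 and 4.19 CPM at EPS 0 h (2.42 ± 0.15). For both genes the EPSC-labelled groups differed from each other as well, EPS 0 h being the lower. Lef1, a nuclear partner of beta-catenin, rose by 3.29 ± 0.08 (210.1 and 221 CPM in EPI-E, against 22.5 and 24.5 CPM in EPSC). The member that fell was Etv4, an ETS factor induced by FGF signals (-1.91 ± 0.10), and 3 were not called.

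The de novo writers of DNA methylation, which are members of the formative list too, rose with it. Dnmt3a, a de novo methyltransferase, had 1243 and 1233 CPM in EPI-E, against 222 and 226 CPM in EPSC and 254 and 252 CPM at EPS 0 h (2.56 ± 0.03). Dnmt3b had 1342 and 1384 CPM in EPI-E, against 341 and 337 CPM in EPSC and 367 and 363 CPM at EPS 0 h (2.10 ± 0.03). The EPSC-labelled groups were close to each other in both genes, and EPI-E stood apart. The maintenance methyltransferase gene Dnmt1 rose by 0.67 ± 0.04, a call lost with scaling to library totals (0.03). Of the 8 genes of the methylation list, which also holds the TET demethylases, 6 rose and 2 fell, with 5 rises and 0 falls beyond all 4 EPSC-labelled libraries. Without EPSC replicate 1 or 2 the list had 1 fall, and with library totals 2 rose and 4 fell and the median of 0.40 turned to -0.24.

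The label of EPI-E was checked with lineage markers. PrE regulators took up 0.00231% and 0.00307% of EPI-E counts and 0.509% and 0.512% of PrE-E counts, against 0.00825% and 0.00833% of EPSC counts. Of 12 listed, 9 were tested, 3 fell and 0 rose (median -1.90), all 3 below all 4 EPSC-labelled libraries, a share near the 33% of all genes that fell. The number that fell was 5 without EPI-E replicate 1, 7 without EPI-E replicate 2 and 2 without either EPSC replicate. Gata6, the zinc finger factor that specifies PrE, had 0 and 2.61 CPM in EPI-E and 186 and 155 CPM in PrE-E, against 5.6 and 5.63 CPM in EPSC (-1.90 ± 1.00 for EPI-E minus EPSC, edgeR adjusted p = 0.13). Its level was low in EPI-E and in EPSC and was not called. Gata4 fell by 2.83 ± 0.85 on the log2 scale (1.15 and 0 CPM in EPI-E, against 5.84 and 5.51 CPM in EPSC), a call lost with DESeq2 (adjusted p = 0.182), with offsets for length and GC content (edgeR adjusted p = 0.0671) and without EPSC replicate 1 (edgeR adjusted p = 0.051). Sox17 was too low to test. Pdgfra had 3.53 and 3.73 CPM in EPI-E and 807 and 871 CPM in PrE-E, against 16.1 and 18.5 CPM in EPSC. Gata6 and Gata4 were thus low in EPI-E and in EPSC and high in PrE-E, where Gata4 had 296 and 334 CPM. Pdgfra, a member of the list, may be tied to the sort and is no check of the label.

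Of 14 basement membrane genes, which PrE makes in quantity, 10 fell and 0 rose (median -1.10), with 7 falls below all 4 EPSC-labelled libraries. Against EPS 0 h 3 rose and 6 fell, with a median of -0.36. Feeder fibroblast markers, matrix genes among them, also moved with this list, summing to 216 and 206 CPM in EPI-E, against 1273 and 1271 CPM in EPSC and 212 and 211 CPM at EPS 0 h, and their part in it was not tested. Lama1, a laminin chain of embryonic basement membranes, had 17.2 and 11.7 CPM in EPI-E and 13316 and 13709 CPM in PrE-E, against 138 and 139 CPM in EPSC and 34.1 and 35.9 CPM at EPS 0 h (-3.14 ± 0.15 for EPI-E minus EPSC). Sparc, a collagen-binding matrix protein, fell by 2.67 ± 0.13 on the log2 scale and Nid1, a laminin linker, by 2.53 ± 0.10. Visceral endoderm genes were split, with 4 rising and 2 falling of 7 tested of 12 listed, all 6 beyond the EPSC-labelled libraries. Lrp2, the endocytic receptor megalin, had 297 and 282 CPM in EPI-E, against 48.6 and 56.7 CPM in EPSC and 14.7 and 13.5 CPM at EPS 0 h (2.56 ± 0.08), whereas its partner cubilin, Cubn, had 4.93 and 4.2 CPM in EPI-E, against 38.3 and 30.1 CPM in EPSC and 6.1 and 5.57 CPM at EPS 0 h (-2.76 ± 0.22). In PrE-E the levels were 6349 and 6825 CPM for Lrp2 and 5897 and 6179 CPM for Cubn, so both receptors were high there. In EPI-E they moved in opposite directions against EPSC. Against EPS 0 h Lrp2 rose too (4.37 ± 0.06), but the fall of Cubn was not called (-0.33 ± 0.25, edgeR adjusted p = 0.282). Rhox5, an X-linked homeobox gene, rose by 3.60 ± 0.06 and Apoe by 0.98 ± 0.04, while Afp, Ttr and Apoa1 were too low to test. The list's median of 0.98 turned to -0.16 without EPI-E replicate 1 and to -0.76 without EPI-E replicate 2, with 9 genes tested in each fit.

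Among the other lineages, trophoblast and streak markers were low in EPI-E, while neural markers were split. Of 14 trophoblast genes, 10 were tested, 6 fell and 0 rose (median -1.33), 4 of them below all 4 EPSC-labelled libraries, and 3 fell without EPSC replicate 1 or 2. The defining factor genes Cdx2, Elf5 and Hand1 were too low to test in EPI-E and EPSC. Tead4, a transcription factor of early trophectoderm, fell by 2.94 ± 0.23 on the log2 scale (2.55 and 2.52 CPM in EPI-E, against 22 and 22.1 CPM in EPSC). Of 10 streak and mesoderm genes, 2 were tested and 1 fell, below all 4 EPSC-labelled libraries, which was not called without EPSC replicate 1 or 2. Of 8 neural genes, 5 were tested, 3 rose and 2 fell (median 1.47), with 3 rises and 1 fall beyond all 4 EPSC-labelled libraries, and 1 fell without EPSC replicate 1 or 2. Sox1, the earliest neural plate SOX gene, had 28.9 and 17.3 CPM in EPI-E, against 6.09 and 5.39 CPM in EPSC and 1.99 and 1.69 CPM at EPS 0 h (2.06 ± 0.29), and Nes, an intermediate filament of progenitors, rose by 1.47 ± 0.12. The neuronal tubulin gene Tubb3 fell by 2.01 ± 0.19 on the log2 scale.

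**Figure D3:**
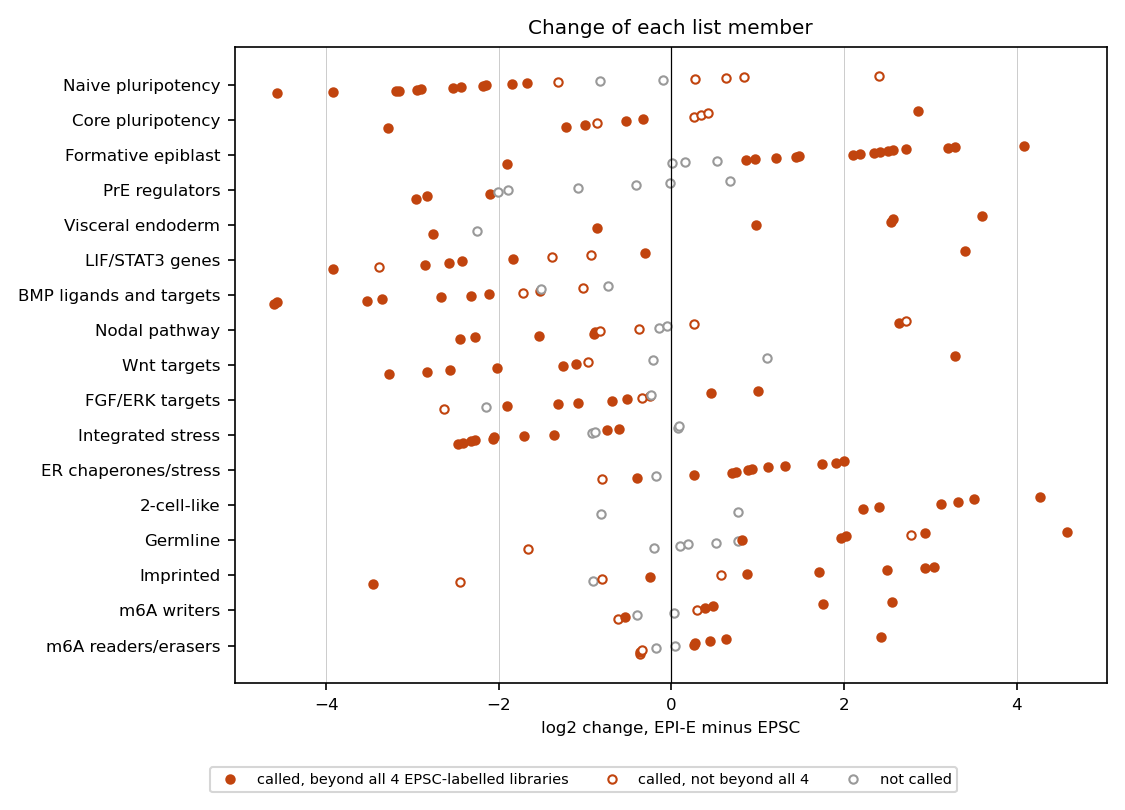
Change of every tested member of 17 lists (log2, EPI-E minus EPSC), 1 point per gene, filled where the gene was called and lay beyond all 4 EPSC-labelled libraries, open and coloured where it was called only, grey where it was not called. Filled points sit left of 0 for the BMP list and for all but 1 gene each of the LIF/STAT3 and Wnt lists, and right of 0 for all but 1 gene each of the formative and ER lists.

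Genes of the signals that hold the naive state were lower. LIF acts through a receptor pair and the transcription factor STAT3. Of 10 genes of this pathway, 9 fell and 1 rose (median -2.13), with 6 falls and the rise beyond all 4 EPSC-labelled libraries. Against EPS 0 h 6 fell and 2 rose, with a median of -0.80. Socs3, the feedback inhibitor that STAT3 induces, had 14 and 13.7 CPM in EPI-E, against 79.9 and 80.8 CPM in EPSC and 88.2 and 87.1 CPM at EPS 0 h (-2.42 ± 0.11, edgeR adjusted p = 4.25e-07). The EPSC-labelled groups were close in Socs3, and EPI-E was well under both. Stat3 itself fell by 1.84 ± 0.08 on the log2 scale, the kinase gene Pim3 by 2.86 ± 0.10 and the NF-kappaB cofactor gene Bcl3 by 3.92 ± 0.21. The receptor gene Lifr had 79 and 50.9 CPM in EPI-E, against 179 and 186 CPM in EPSC and 40.9 and 41 CPM at EPS 0 h (-1.38 ± 0.17), so EPI-E lay between the EPSC-labelled groups. The member that rose was Gadd45g, a gene of growth arrest and DNA damage responses (57.9 and 58.3 CPM in EPI-E, against 6.25 and 5.03 CPM in EPSC; 3.40 ± 0.16).

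BMP ligands and targets had 10 falls and 0 rises of 12 tested, with a median of -2.22 and 8 falls below all 4 EPSC-labelled libraries. The falls were 6 of 11 tested without EPSC replicate 1 and 5 of 12 without EPSC replicate 2, and the medians stayed at -2.04 and -2.29. Id1, an inhibitor of helix-loop-helix factors and a direct BMP target, had 0.986 and 0.933 CPM in EPI-E, against 27.3 and 30.3 CPM in EPSC and 18.4 and 19 CPM at EPS 0 h (-4.57 ± 0.25). Id3 had 0.904 and 3.27 CPM in EPI-E, against 56.5 and 57.9 CPM in EPSC and 26.6 and 29.1 CPM at EPS 0 h (-4.60 ± 0.35). Both genes were close to absent from EPI-E and present in all 4 EPSC-labelled libraries. PrE-E was low in them too, with 1.7 and 4.87 CPM of Id1 and 0 and 0.148 CPM of Id3. The ligand gene Bmp4 had 11.3 and 13.5 CPM in EPI-E, against 66.9 and 67.1 CPM in EPSC and 41.2 and 41.7 CPM at EPS 0 h (-2.32 ± 0.14), and Bmp2, at 0 counts in EPI-E, was at least 6.7-fold lower than in EPSC, taking 3 counts per EPI-E library as the limit. The call of Bmp2 was lost without either EPSC replicate (edgeR adjusted p = 0.0698 without replicate 1 and 0.0623 without replicate 2). Id2 fell against EPSC (3.21 and 3.55 CPM in EPI-E, against 12.3 and 12.2 CPM in EPSC; -1.72 ± 0.27), while EPS 0 h had 1.57 and 1.83 CPM, below both EPI-E values.

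The other pathways were mixed. Of 10 Wnt target genes tested of 13 listed, 7 fell and 1, Lef1, rose (median -1.18, or -0.77 with the length and GC offsets), with 6 falls and the rise beyond all 4 EPSC-labelled libraries. The feedback gene Axin2 fell by 1.10 ± 0.15 on the log2 scale and the cyclin gene Ccnd1 by 1.25 ± 0.07. Sp5, a target in pluripotent cells, had 0.411 and 0 CPM in EPI-E, against 4.36 and 3.36 CPM in EPSC and 22.7 and 23.2 CPM at EPS 0 h (-3.28 ± 0.79), a call lost without EPSC replicate 1 (edgeR adjusted p = 0.0966). Of 12 Nodal pathway genes, 7 fell and 3 rose (median -0.60, or -0.12 with those offsets), with 5 falls and 1 rise beyond all 4 EPSC-labelled libraries. The ligand gene Nodal had 9.2 and 6.72 CPM in EPI-E, against 41.3 and 42.8 CPM in EPSC and 35.1 and 38.7 CPM at EPS 0 h (-2.27 ± 0.19), and Furin, a convertase that processes it, fell by 2.45 ± 0.18 on the log2 scale. Skil, a repressor of SMAD signalling, had 496 and 477 CPM in EPI-E, against 82.2 and 84.4 CPM in EPSC and 72.2 and 69.7 CPM at EPS 0 h (2.64 ± 0.05), and so moved opposite to Nodal. Of 12 FGF/ERK targets, 8 fell and 2 rose (median -0.60), with 5 falls and 2 rises beyond all 4 EPSC-labelled libraries. Against EPS 0 h 6 rose and 3 fell, and the median turned to 0.12. Etv5, an ETS factor, fell by 1.32 ± 0.06 on the log2 scale. Among the receptors, Fgfr1 fell by 0.59 ± 0.07 (0.00 with the offsets) and Fgfr2 rose by 1.86 ± 0.22.

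Genes of the integrated stress response were lower, and genes of endoplasmic reticulum (ER) folding were higher. In the integrated stress response the factor ATF4, made when translation is curbed, induces enzymes and transporters of amino acid supply. Of 14 tested of 15 listed, 10 fell and 0 rose, with a median of -1.54, and all 10 lay below all 4 EPSC-labelled libraries. The list summed to 729 and 766 CPM in EPI-E and 768 and 774 CPM in PrE-E, against 1647 and 1642 CPM in EPSC. Both sorted fractions, held in the same table, were thus low. Asns, asparagine synthetase, had 49.5 and 44.5 CPM in EPI-E, against 211 and 211 CPM in EPSC and 491 and 497 CPM at EPS 0 h (-2.06 ± 0.07, edgeR adjusted p = 1.06e-07). Psat1, of serine synthesis, had 42.6 and 38.8 CPM in EPI-E, against 205 and 218 CPM in EPSC and 426 and 429.5 CPM at EPS 0 h (-2.27 ± 0.08). EPI-E was lowest in both genes, and EPS 0 h was about 2-fold above EPSC. Trib3, a pseudokinase, fell by 1.71 ± 0.18 on the log2 scale, Chac1, which breaks down glutathione, by 2.48 ± 0.40, the transcription factor gene Atf3 by 2.32 ± 0.59 and Atf4 itself by 0.75 ± 0.09, which was -0.22 and not called with the length and GC offsets. The other 4 were not called. ATF4 binds with C/EBP factors at a composite site, here searched as TGATGNAA on both strands in the window of 250 bases before to 50 bases after the RefSeq gene start (GRCm38.p6). It was present in 3.97% of 32851 promoter windows and in the windows of 6 of 14 list members matched, of which Herpud1 (-0.88 ± 0.36) and Slc7a11 (-0.92 ± 0.40) were not called. The windows of the 4 members that fell and hold the letters are shown 5′ to 3′ on the strand of the gene, with the match in capitals. A match on the opposite strand reads TTNCATCA.
Asns (chr6:7693160-7693459, minus strand): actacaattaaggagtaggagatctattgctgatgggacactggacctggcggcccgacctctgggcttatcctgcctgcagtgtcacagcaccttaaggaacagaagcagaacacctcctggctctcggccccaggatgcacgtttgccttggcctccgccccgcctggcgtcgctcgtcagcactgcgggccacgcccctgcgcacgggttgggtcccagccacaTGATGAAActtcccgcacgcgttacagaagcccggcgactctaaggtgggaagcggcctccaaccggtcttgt
Chac1 (chr2:119350992-119351291, plus strand): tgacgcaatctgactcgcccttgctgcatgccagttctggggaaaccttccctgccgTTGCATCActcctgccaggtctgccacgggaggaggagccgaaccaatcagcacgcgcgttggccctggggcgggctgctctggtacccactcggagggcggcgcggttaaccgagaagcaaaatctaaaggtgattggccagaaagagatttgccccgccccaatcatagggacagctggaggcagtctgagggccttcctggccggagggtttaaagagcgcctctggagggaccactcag
Trib3 (chr2:152344011-152344310, minus strand): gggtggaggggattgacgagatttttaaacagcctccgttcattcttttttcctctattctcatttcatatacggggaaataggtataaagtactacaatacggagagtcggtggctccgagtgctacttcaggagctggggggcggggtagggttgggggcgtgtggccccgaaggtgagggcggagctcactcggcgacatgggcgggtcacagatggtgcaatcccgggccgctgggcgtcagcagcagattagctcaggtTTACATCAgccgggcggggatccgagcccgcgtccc
Atf3 (chr1:191183284-191183583, minus strand): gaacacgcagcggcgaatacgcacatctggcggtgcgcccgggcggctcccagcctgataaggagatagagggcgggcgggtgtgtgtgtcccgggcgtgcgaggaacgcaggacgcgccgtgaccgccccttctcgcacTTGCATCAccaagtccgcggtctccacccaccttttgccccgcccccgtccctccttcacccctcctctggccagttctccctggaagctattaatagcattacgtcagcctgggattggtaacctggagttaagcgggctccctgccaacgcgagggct

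The match lay before the gene start in Asns, Chac1 and Atf3 and after it in Trib3. These letters describe the windows and do not show binding.

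Of 13 ER genes, 10 rose and 2 fell (median 0.89), and all 10 rises and 1 fall lay beyond all 4 EPSC-labelled libraries. With library totals, which lowered the median over all genes to -0.70, 6 rose and 4 fell, with a median of 0.25. Hsp90b1, the ER HSP90 chaperone, had 2268 and 2128 CPM in EPI-E, against 618 and 636 CPM in EPSC and 939 and 923 CPM at EPS 0 h (1.91 ± 0.04). Pdia4, a disulfide isomerase, had 670.3 and 627 CPM in EPI-E, against 177 and 169 CPM in EPSC and 169 and 169 CPM at EPS 0 h (2.00 ± 0.05). Hspa5, the chaperone BiP, rose by 0.93 ± 0.03. PrE-E, from the same table as EPI-E, had 7835 and 8412 CPM of Hsp90b1, above EPI-E. Of 15 p53 targets, 9 fell and 4 rose (median -0.95, or -0.46 with the offsets), with 8 falls and 3 rises beyond all 4 EPSC-labelled libraries, and 2 rose without EPSC replicate 1 or 2. With library totals 14 fell and 1 rose (median -1.58). Cdkn1a, the cell cycle inhibitor p21, had 6.9 and 8.77 CPM in EPI-E, against 73 and 74.4 CPM in EPSC and 72.8 and 74.8 CPM at EPS 0 h (-3.11 ± 0.15). PrE-E was as low, with 8.94 and 7.45 CPM of Cdkn1a. Pmaip1, which encodes the BH3-only protein Noxa, had 812 and 737 CPM in EPI-E, against 35 and 33.1 CPM in EPSC and 57.5 and 57.7 CPM at EPS 0 h (4.59 ± 0.07, edgeR adjusted p = 1.2e-09). PrE-E had 37.6 and 31.1 CPM of Pmaip1, so both EPI-E libraries stood above the other 6.

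Genes of the 2-cell-like state, which a small share of mouse pluripotent cells enters, were higher. Of 8 tested of 14 listed, 6 rose and 0 fell, with a median of 2.77, and all 6 lay above all 4 EPSC-labelled libraries. With the PrE-E libraries in the same fit 4 rose and 0 fell, with a median of 2.69. Zscan4c, a telomere and genome stability factor, had 33.7 and 27.8 CPM in EPI-E, against 2.63 and 3.72 CPM in EPSC and 3.19 and 2.14 CPM at EPS 0 h (3.32 ± 0.24). Zscan4d (3.51 ± 0.26) and Zscan4f (4.27 ± 0.31) rose by similar amounts. The Zscan4, Eif1ad and Usp17l genes are near-identical copies, so the value of any copy is uncertain, and Zfp352 was among the members too low to test. The list summed to 83.2 and 88.9 CPM in EPI-E, against 10.1 and 9.83 CPM in EPSC and 10.4 and 9.45 CPM at EPS 0 h. Germline genes had 6 rises and 1 fall of 12 tested (median 0.80, or 0.17 with library totals), with 5 rises and 0 falls beyond all 4 EPSC-labelled libraries, the largest in Sycp1, of the synaptonemal complex, with 59.3 and 53.2 CPM in EPI-E, against 1.81 and 3.0 CPM in EPSC and 11.3 and 9.99 CPM at EPS 0 h (4.59 ± 0.22). Hormad1, a meiotic chromosome axis gene, rose by 2.94 ± 0.18. Of 11 imprinted genes tested of 16 listed, 6 rose and 4 fell, 5 rises and 2 falls beyond all 4 EPSC-labelled libraries, and the median of 0.58 turned to -0.06 with library totals. Grb10, an imprinted adaptor of growth factor receptors, had 315 and 314 CPM in EPI-E, against 39.9 and 41.4 CPM in EPSC and 39.5 and 38.3 CPM at EPS 0 h (3.05 ± 0.06). Peg3, a zinc finger gene, rose by 2.49 ± 0.04, and Plagl1, a regulator of the imprinted network, fell by 3.46 ± 0.21 on the log2 scale. Peg3 was at a like level in both sorted fractions, with 1016 and 993 CPM in EPI-E and 993 and 1009 CPM in PrE-E. Grb10 was not, with 26.7 and 25.1 CPM in PrE-E.

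**Figure D4:**
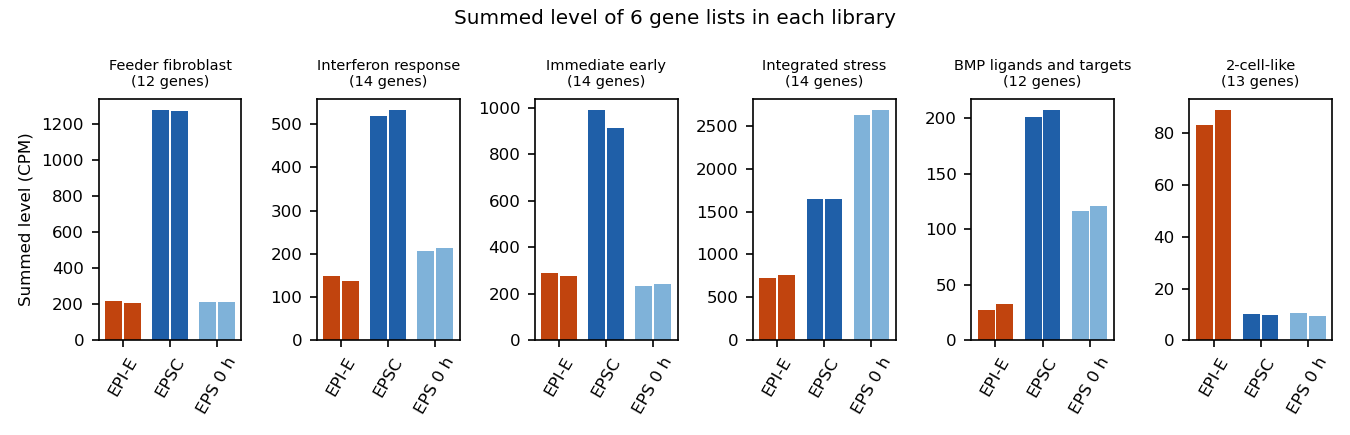
Summed level (CPM) of 6 gene lists in each library of EPI-E, EPSC and EPS 0 h, 1 bar per library, each panel with its own axis from 0. Feeder fibroblast, interferon and immediate early genes stand highest in EPSC. EPI-E is near EPS 0 h for feeder genes, below it for interferon genes (148 and 137, against 207 and 214 CPM) and above it for immediate early genes (291 and 278, against 235 and 243 CPM). Integrated stress and BMP genes are lowest and 2-cell-like genes highest in EPI-E by either set of EPSC libraries.

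Feeder, interferon and immediate early genes set EPSC apart from EPS 0 h as well as from EPI-E. The markers of feeder fibroblasts, cells on which stem cells are often grown, summed to 216 and 206 CPM in EPI-E, against 1273 and 1271 CPM in EPSC and 212 and 211 CPM at EPS 0 h. Of these 12 genes, 10 fell and 0 rose (median -2.64), 6 of them below all 4 EPSC-labelled libraries. Col1a1, of type I collagen, had 90.1 and 87.2 CPM in EPI-E, against 589 and 579 CPM in EPSC and 46.9 and 47 CPM at EPS 0 h (-2.62 ± 0.05), and of the 12 markers Twist2 was at 0 in 1 EPI-E library. Interferon response genes had 12 falls and 0 rises of 14 (median -1.83), 5 below all 4 EPSC-labelled libraries. Isg15, a ubiquitin-like modifier, had 0.493 and 1.77 CPM in EPI-E, against 10.6 and 9.71 CPM in EPSC and 0.601 and 0.446 CPM at EPS 0 h (-2.91 ± 0.50), and Rnf213, a large ubiquitin ligase, had 40.6 and 33.3 CPM in EPI-E, against 158 and 169.7 CPM in EPSC and 5.73 and 5.22 CPM at EPS 0 h (-2.04 ± 0.10). EPI-E and EPS 0 h were both low in Isg15, and EPI-E lay between the EPSC-labelled groups in Rnf213. Immediate early genes, which respond within minutes to serum or handling, had 13 falls and 0 rises of 14 (median -2.48), 4 below all 4 EPSC-labelled libraries. Egr1, a zinc finger factor, had 26.1 and 32.7 CPM in EPI-E, against 204 and 186 CPM in EPSC and 4.44 and 4.59 CPM at EPS 0 h (-2.63 ± 0.11), and Fos had 1.89 and 2.8 CPM in EPI-E, against 31.7 and 26.9 CPM in EPSC and 0.462 and 0.268 CPM at EPS 0 h (-3.46 ± 0.26). The part of these genes' cells of origin or of handling in the other results was not tested.

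The series title concerns N6-methyladenosine (m6A), a mark on mRNA, and genes of its machinery were split. Of 9 writer genes, 5 rose and 2 fell, with 4 rises and 1 fall beyond all 4 EPSC-labelled libraries, and 1 fell without EPSC replicate 1 or 2. The median of 0.30 turned to -0.34 with library totals, where 2 rose and 7 fell. The catalytic subunit gene Mettl3 had 19.6 and 21.6 CPM in EPI-E, against 31.4 and 33 CPM in EPSC and 40 and 38.4 CPM at EPS 0 h (-0.54 ± 0.15), while its partner Mettl14 had 103 and 116 CPM in EPI-E, against 32.8 and 36.4 CPM in EPSC and 48.2 and 45.7 CPM at EPS 0 h (1.75 ± 0.10). The 2 members of the catalytic pair thus differed in opposite directions, each beyond all 4 EPSC-labelled libraries, and the call of Mettl3 was lost without EPSC replicate 1 (edgeR adjusted p = 0.0914) or replicate 2 (0.129). Zc3h13, which holds the complex in the nucleus, rose by 2.55 ± 0.05 (586 and 555 CPM in EPI-E, against 104 and 104 CPM in EPSC). Of 10 readers and erasers, 5 rose and 3 fell, with 5 rises and 1 fall beyond all 4 EPSC-labelled libraries. The rises were 2 without EPSC replicate 1 and 3 without EPSC replicate 2, and the median of 0.15 turned to -0.49 with library totals, where 1 rose and 7 fell. The nuclear reader gene Ythdc1 had 564 and 587 CPM in EPI-E, against 118 and 110.4 CPM in EPSC and 122 and 117 CPM at EPS 0 h (2.43 ± 0.05). It lay far above all 4 EPSC-labelled libraries, as Mettl14 and Zc3h13 did.

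Metabolic and housekeeping lists were split, and their balance depended on the scaling and on the EPSC libraries. Glycolysis genes had 9 falls and 3 rises of 15 tested, all 12 beyond all 4 EPSC-labelled libraries. Their median of -0.16 was 0.04 with the offsets, -0.80 with library totals (1 rise and 14 falls) and -0.84 against EPS 0 h. Nuclear oxidative phosphorylation genes had 12 falls and 7 rises of 20, with 12 falls and 6 rises beyond all 4 EPSC-labelled libraries. Their median of -0.45 was -1.09 with library totals and -1.21 against EPS 0 h. The counts of the cholesterol list were near the shares of all genes (32.5% higher and 33% lower) and are no result about it. Cholesterol synthesis genes had 6 of each in 20, with 6 rises and 5 falls beyond all 4 EPSC-labelled libraries. Their median of -0.07 was -0.71 with library totals, where 4 rose and 14 fell, and 10 fell without EPI-E replicate 2. Bnip3, a mitophagy receptor that hypoxia induces, had 141 and 145 CPM in EPI-E, against 8.06 and 8.63 CPM in EPSC and 25.7 and 24.9 CPM at EPS 0 h (4.17 ± 0.10). Of 83 ribosomal protein genes, 42 fell and 33 rose (median -0.13), with 42 falls and 22 rises beyond all 4 EPSC-labelled libraries. With library totals 58 fell and 19 rose (median -0.77), and against EPS 0 h the median was -1.05. Their share of unscaled counts was 4.30% and 4.34% in EPI-E, against 5.52% and 5.50% in EPSC and 9.20% and 9.18% at EPS 0 h. On the TMM scale their sum was 51865 and 51813 CPM in EPI-E, against 45433 and 45174 CPM in EPSC and 80809 and 80577 CPM at EPS 0 h, so EPI-E was lower than EPSC as a share of counts and higher on the TMM scale. Mitochondrially encoded genes took 1.57% and 1.67% of unscaled EPI-E counts, against 1.54% and 1.52% in EPSC and 2.83% and 2.95% at EPS 0 h. On the TMM scale they summed to 18970.3 and 19954 CPM in EPI-E, against 12719 and 12524 CPM in EPSC and 24822 and 25871 CPM at EPS 0 h, a wider gap to EPSC than by share. Among them mt-Nd6, which lies on the strand opposite to the other mitochondrial mRNAs, had 3224 and 3436 CPM in EPI-E and 3792 and 4148 CPM in PrE-E, against 392 and 359 CPM in EPSC and 50.6 and 50.7 CPM at EPS 0 h. In contrast mt-Nd1, encoded on the other strand, had 1944 and 2148 CPM in EPI-E, against 2338 and 2293 CPM in EPSC and 4399.98 and 4523 CPM at EPS 0 h. The 3 tables thus held 3 separate levels of mt-Nd6. Over 3274 tested genes whose exons overlap a gene on the other strand, the median change was -0.10, against -0.06 over 9364 without such overlap. These medians cannot show an effect on single genes. Such an overlap is present in Otx2, Lef1, Pou5f1, Bnip3, Cdkn1a, Bmp4, Cubn and Cyp4x1, among other named genes. It is absent from Klf2, Nanog, Fgf5, Dnmt3a and Dnmt3b, among others. Histone genes are not interpreted here, and 60 of the 74 tested were called.

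The rule for the largest changes named 12 genes in each direction. Among the rises, 11 of the 12 lay above all 4 EPSC-labelled libraries. Cyp4x1, a cytochrome P450 gene at 0 counts in EPSC, had 12.8 and 9.8 CPM in EPI-E, at least 39-fold higher, taking 3 counts per EPSC library as the limit. Hmgn5, a nucleosome-binding protein, had 214 and 201 CPM in EPI-E, against 7.41 and 7.31 CPM in EPSC and 32.8 and 33.1 CPM at EPS 0 h (4.88 ± 0.09), and Hmgb3, a chromatin protein, rose by 4.74 ± 0.14. Car4, a membrane carbonic anhydrase, rose by 5.05 ± 0.25, Tal2, a helix-loop-helix factor, by 5.22 ± 0.36, and Agrp, a melanocortin antagonist, by 4.70 ± 0.26. The others were Smim11 (5.79 ± 0.12), Rhox9 (5.46 ± 0.42), Jakmip2 (4.96 ± 0.54), Zscan4-ps2 (4.78 ± 0.36) and Ccdc136 (4.72 ± 0.10). The exception was Acat3, a thiolase with 10.5 and 11.8 CPM in EPI-E, against 0.0823 and 0.12 CPM in EPSC, but 11.7 and 10.2 CPM at EPS 0 h. With 1 count in each EPSC library it was 114-fold higher in EPI-E than in EPSC (exact 95% interval 31.2 to 944). In PrE-E, Car4 (95.6 and 76.6 CPM) and Hmgb3 (371 and 333 CPM) were high as well. Agrp (0.426 and 0.885 CPM) and Ccdc136 (9.45 and 16.1 CPM) were not.

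All 12 of the largest falls lay below all 4 EPSC-labelled libraries. Pmel, of pigment granules, and Mmp3, a matrix protease, had 0 counts in EPI-E and were at least 48.2-fold and 55.1-fold lower than in EPSC. S100a6, a calcium-binding protein, had 1.31 and 0.0933 CPM in EPI-E, against 34.5 and 41.4 CPM in EPSC and 47.9 and 49.1 CPM at EPS 0 h (-5.28 ± 0.47), and Kdelr3, a retrieval receptor of the ER, had 0.329 and 0.0933 CPM in EPI-E, against 13.7 and 16.9 CPM in EPSC and 15.5 and 16.5 CPM at EPS 0 h (-5.19 ± 0.42). In these 4 genes the EPSC-labelled groups were within 2-fold of each other. In the other 8 EPSC was well above EPS 0 h. Jak3, a kinase of cytokine receptors, had 1.4 and 0.187 CPM in EPI-E, against 60.9 and 65 CPM in EPSC and 16.1 and 15.5 CPM at EPS 0 h, and Oas2, an interferon-induced synthetase with 1 count over the EPI-E libraries, was 475-fold lower than in EPSC (exact 95% interval 84.7 to 18800, counting error only). The remaining falls, Ptgs2, Lum, Lgals3bp, Prrx1, Cyp1b1 and Ankrd33b, had changes of -6.06 to -5.17, and Lum and Prrx1 are genes of fibroblasts and other mesenchyme.

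**Figure D5:**
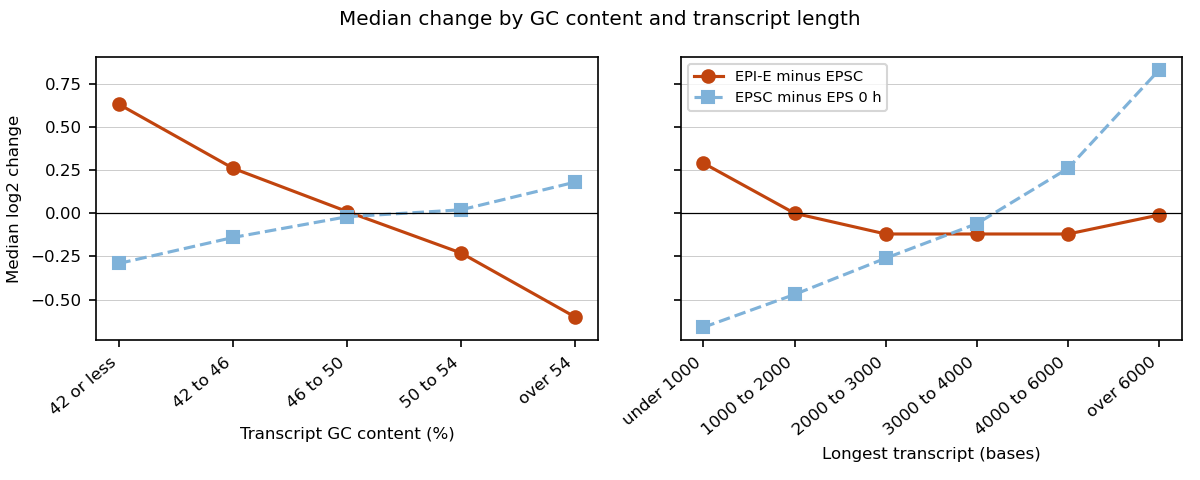
Median log2 change of the tested genes by GC content and by length of the longest transcript, for EPI-E minus EPSC (circles) and EPSC minus EPS 0 h (squares). The EPI-E medians fall with GC content, 0.63 at 42% or less and -0.60 above 54%, and vary by length between 0.29 and -0.12, while EPSC minus EPS 0 h rises with length, -0.66 in the shortest and 0.83 in the longest transcripts.

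Base composition moved with the comparison. Across 12638 tested genes with a matched transcript (97.7%), Spearman's rho of the EPI-E minus EPSC change was -0.288 with GC content and -0.0252 with length, a description across genes that share libraries. With offsets for both, 4463 genes were higher and 3468 lower. Medians remained on their side of 0 for the naive (-1.84), formative (2.29), BMP (-2.06), LIF/STAT3 (-1.50), integrated stress (-1.03), ER (0.97) and 2-cell-like (2.62) lists. The within-table comparison of PrE-E minus EPI-E had rho of 0.0156 with GC content and 0.0139 with length. Scaling moved the balance of calls: the split was 2406 higher and 6926 lower with library totals, 3353 and 5508 when scaled to ribosomal protein genes, with median changes over all genes of -0.70 and -0.35.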

How the data were processed

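RNA-seq libraries were made from TRIzol-extracted RNA with a stranded SMARTer or a VAHTS kit and sequenced on a NovaSeq, per the labels' protocols. Which kit made which library, the gene annotation and the strand setting of the counting are not stated in the sources used here, so reads of genes that overlap on opposite strands, and of near-identical copies, cannot be told apart. Per the submitters' processing notes, the tools were STAR 2.7.11b, Subread, DESeq2, Trim Galore and FastQC 0.12.1, with build mm39. The deposited values used here are raw counts per gene symbol, not normalized by the authors.

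Counts were joined on the 21793 symbols that occur once in both the EPI-E and the EPSC table. The EPS 0 h counts, from a further table, were looked up by these symbols without asking that each occur once there. Genes were kept by edgeR's filterByExpr (minimum count 10, minimum total 15), scaled by TMM and tested in R 4.3.3 with edgeR 4.0.16 by the robust quasi-likelihood F-test, prior count 2, on the 4 EPI-E and EPSC libraries, with Benjamini-Hochberg adjustment over all tested genes. The CPM levels use TMM factors over 8 libraries, so their ratios differ slightly from the fitted changes. EPSC against EPS 0 h and PrE-E against EPI-E were fitted in the same way. On simulated data with 12605 genes for EPI-E against EPSC, the test recovered 62% of genes changed by 1 log2 unit and 82% of those changed by 2, with 14 false calls among the other genes. The simulation changed 100 genes of each size, equally up and down, and held no difference between tables. It therefore does not give the rate of false calls in a comparison where most genes were called and table and group coincide. Bounds and intervals cover counting error only.

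The members and lists were chosen with earlier results of these data known. The named genes are the 12 largest rises and falls with at least 10 mean CPM in 1 group, the 4 members of a list with the lowest adjusted p, and a fixed set of lineage genes. Other list members named were chosen after their values were seen. Promoter windows are RefSeq's (GRCm38.p6) and transcript length and GC content come from GENCODE transcripts matched by symbol. Alternatives were other scalings (library totals, upper quartile, DESeq2 1.42.0 size factors, ribosomal protein genes), other low-count filters, the DESeq2 test, a replicate block, each replicate left out, PrE-E in the fit, EPS 0 h in place of EPSC, and gene classes left out. Offsets for length and GC content and leaving out transcripts under 1000 bases were added after seeing the data.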

Additional observations from a re-analysis of the deposited data

How the results depend on the processing

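The 8469 calls of EPI-E against EPSC were 2101 when a change of at least 2 log2 units was also asked, and with library totals 2406 genes were higher and 6926 lower. Other scalings moved the split to 3353 higher and 5508 lower with ribosomal protein genes and 3647 and 5035 with upper quartiles. Leaving out a replicate gave 6290 to 10474 calls, with 3348 to 4996 higher, 2940 to 5478 lower and 4127 to 6146 of at least 1 log2 unit. It gave 9085 to 9962 calls for EPSC against EPS 0 h and 6182 to 6835 for PrE-E against EPI-E. Same-numbered EPI-E and EPSC libraries did not deviate together (correlation 0.0169). With 2 libraries per group this cannot settle whether the numbers pair them. With a replicate block 8323 genes were called (6760 for PrE-E against EPI-E). Of 117 genes named with a value, 113 were called, and 0 of these changed direction with DESeq2's test, other filters, the replicate block, a left-out replicate or the length and GC offsets. Many of these genes were named for a large change or a low adjusted p in this same fit. Changes of direction were therefore unlikely in advance, and their absence is no independent support. With EPS 0 h in place of EPSC 10 of the called genes changed direction: Col1a1 (0.93), Dppa3 (-0.27), Egr1 (2.68), Fos (2.36), Id2 (0.95), Isg15 (0.96), Lifr (0.68), Pou5f1 (-0.40), Rnf213 (2.74) and Zfp42 (0.29). Against the mean of both EPSC-labelled groups Pou5f1 (-0.08) and Rnf213 (0.30) did, and with library totals Pou5f1 (-0.30) did. Beyond the construction of each alternative, the cause was not tested. Depth limits the low genes: 3 counts correspond to 0.360 CPM in the shallowest EPSC library.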

Other observations

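Further gene lists are given here beside the 65.4% of all tested genes that were called, 32.5% higher and 33% lower. The adhesion and hypoxia lists were near that share, so their counts are no result about those lists. Of 8 parietal endoderm genes tested, 5 fell and 1 rose (median -1.75), all 6 beyond all 4 EPSC-labelled libraries. The riser was Krt18, a keratin of simple epithelia, with 29.1 and 21.9 CPM in EPI-E, against 2.96 and 2.28 CPM in EPSC and 7.44 and 7.62 CPM at EPS 0 h (3.27 ± 0.26). Among 15 adhesion and epithelial-mesenchymal genes, 5 rose and 4 fell, with 4 of each beyond all 4 EPSC-labelled libraries. With library totals 3 rose and 7 fell. Epcam, an epithelial adhesion molecule, had 227 and 268 CPM in EPI-E, against 79.5 and 82.2 CPM in EPSC and 216 and 217 CPM at EPS 0 h (1.71 ± 0.09). Against EPS 0 h the change of Epcam was 0.20 ± 0.08 and was not called (edgeR adjusted p = 0.0774). Vim, the mesenchymal filament vimentin, had 106 and 121 CPM in EPI-E, against 491 and 471 CPM in EPSC and 308 and 304 CPM at EPS 0 h (-1.99 ± 0.07). Both EPI-E libraries lay above all 4 EPSC-labelled libraries for Krt18 and Epcam and below them for Vim. Of 13 hypoxia genes tested, 6 rose and 3 fell (median -0.20), with 5 rises and 3 falls beyond all 4 EPSC-labelled libraries. Without EPSC replicate 1 the count was 3 rises and 1 fall, without EPSC replicate 2 it was 3 rises and 2 falls, and against EPS 0 h 4 rose and 4 fell. Proliferation genes had 8 rises and 5 falls of 14, with 5 of each beyond all 4 EPSC-labelled libraries. Their median of 0.31 was -0.33 with library totals and -0.10 against EPS 0 h, and Mki67, a marker of cycling cells, rose by 1.63 ± 0.03. Lin28b, an inhibitor of let-7 maturation, had 81.6 and 74.7 CPM in EPI-E, against 32.3 and 35.2 CPM in EPSC and 43.4 and 42.2 CPM at EPS 0 h (1.31 ± 0.10).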
